A study of Mus musculus with 10 samples.

Results

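The transcription factors that build and maintain the trophoblast, *Cdx2*, *Eomes*, *Gata2*, *Gata3*, *Hand1*, *Elf5*, *Tead4* and *Tfap2c*, were followed by RNA sequencing in 5 mouse cell lines at 2 passages each. The 8 genes were chosen by name, with earlier results of these data known, as 8 of the 18901 genes in the expression table. All 8 passed the filter on low values. All lines carried the strain label of a cross of mf1 and 129. Mouse embryonic fibroblasts (MEF, passages 2 and 4) were the starting cells, taken from embryos carrying an Oct4/GFP reporter and grown in DMEM with fetal calf serum. The other 4 lines, namely pre-iPS, control iPS and 2 iPS clones derived with recombinant Netrin-1 (rNetrin-1 clone 1 and clone 2), had received Oct4, Sox2, Klf4 and c-Myc by retrovirus, and were grown with knockout serum replacement and leukemia inhibitory factor (LIF) and sampled at passages 5 and 25. The study kept such lines on gelatin or on irradiated MEF, and which applied to a given library is not given in the sources used here. Its methods give the medium with serum replacement and LIF either alone or with added components called 2i. Pre-iPS cells are stalled partway through reprogramming, with the viral factors still expressed and the cell's own Oct4 gene still off. Netrin-1 is a secreted ligand, and the rNetrin-1 clones were derived in its presence. Each line was a single derivation, so its 2 libraries were repeated samples of that line. Model p-values between lines measure the spread between such passages and not between independent clones. Those of the passage comparison measure how the passage step varied over the 4 reprogrammed lines. Exact permutation tests between lines shuffle libraries, which are not independent clones either.

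The trophoblast is the first lineage to leave the early mammalian embryo, and it gives rise to the placenta. Tead4, together with the coactivator Yap, works upstream in the outer cells of the embryo, where Gata3 and the caudal homeobox factor Cdx2 are switched on. Eomes, Elf5 and Tfap2c then maintain trophoblast stem cells, whereas Gata2 and the basic helix-loop-helix factor Hand1 act in trophoblast giant cells. Several of these proteins also have roles outside the placenta. Tfap2c acts in primordial germ cells, Eomes in the primitive streak, Gata2 in blood and Hand1 in the heart and extra-embryonic mesoderm. Elf5 is a textbook gatekeeper between the lineages, as its promoter is methylated in embryonic stem cells and unmethylated in trophoblast stem cells.

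On mouse build GRCm38 (GENCODE annotation), *Cdx2* lies at chr5:147300805-147307270 on the minus strand, *Eomes* at chr9:118478212-118486132 on the plus strand and *Gata2* at chr6:88193891-88207032 on the plus strand. *Gata3* (chr2:9857078-9890034, minus strand), *Elf5* (chr2:103411688-103450989, plus strand) and *Tfap2c* (chr2:172549593-172558622, plus strand) share chromosome 2. *Hand1* is at chr11:57828705-57832818 and *Tead4* at chr6:128224288-128300823, both on the minus strand. The libraries did not mark strand, so reads from overlapping exons of different genes could not be told apart. Such overlap was small, with 118 exonic bases of *Eomes* (2.8% of its exon length) shared with the antisense gene Gm33460 and, for *Gata3*, 155 bases (3.9%) shared with the antisense gene Gm13256 and 77 bases (1.9%) with 9230102O04Rik.

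The start regions of *Elf5*, *Cdx2* and *Eomes* are shown because these 3 factors form the core of the trophoblast stem cell programme and CpG methylation is known to act at *Elf5*. The sequences come from RefSeq (GRCm38.p6), run from 250 bases before to 50 bases after a start and are written 5′ to 3′ on the gene's strand with every CpG dinucleotide in capitals. The first *Elf5* window is chr2:103411848-103412147 and the second, at a start inside the gene, chr2:103423818-103424117. The *Cdx2* window is chr5:147307200-147307499 and the *Eomes* window chr9:118477939-118478238.
Elf5, upstream start: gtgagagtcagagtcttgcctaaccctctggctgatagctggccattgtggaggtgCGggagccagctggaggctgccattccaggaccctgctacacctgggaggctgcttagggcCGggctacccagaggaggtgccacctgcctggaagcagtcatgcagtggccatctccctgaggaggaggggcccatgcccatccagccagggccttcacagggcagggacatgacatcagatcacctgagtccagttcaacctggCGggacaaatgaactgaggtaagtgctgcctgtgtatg
Elf5, internal start: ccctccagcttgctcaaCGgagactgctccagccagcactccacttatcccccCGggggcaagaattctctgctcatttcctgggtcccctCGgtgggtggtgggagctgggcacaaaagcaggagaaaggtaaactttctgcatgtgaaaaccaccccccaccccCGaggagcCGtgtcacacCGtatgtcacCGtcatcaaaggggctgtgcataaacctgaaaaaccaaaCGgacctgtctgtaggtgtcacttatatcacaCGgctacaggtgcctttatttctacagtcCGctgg
Cdx2: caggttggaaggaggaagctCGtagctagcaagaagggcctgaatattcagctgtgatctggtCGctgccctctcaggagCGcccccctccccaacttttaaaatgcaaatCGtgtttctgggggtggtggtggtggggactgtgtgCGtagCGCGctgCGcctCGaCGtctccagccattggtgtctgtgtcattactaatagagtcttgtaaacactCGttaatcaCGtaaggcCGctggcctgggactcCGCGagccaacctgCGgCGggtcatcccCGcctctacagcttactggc
Eomes: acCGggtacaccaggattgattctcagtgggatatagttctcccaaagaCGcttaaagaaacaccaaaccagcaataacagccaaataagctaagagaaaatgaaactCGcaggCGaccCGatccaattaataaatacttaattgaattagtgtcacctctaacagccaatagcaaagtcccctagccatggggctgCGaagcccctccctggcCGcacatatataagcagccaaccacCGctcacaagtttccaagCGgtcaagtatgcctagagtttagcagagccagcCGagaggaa

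The upstream *Elf5* window held 3 CpG dinucleotides and its internal window 10, against 18 for *Cdx2* and 10 for *Eomes*. Over all 32851 windows of the same length the median was 7, and 23.3% of windows held fewer CpG than the upstream *Elf5* window. *Gata3*, with 22, and the 2 starts of *Gata2*, with 32 and 29, were richer in CpG than 76.9%, 90.5% and 87.1% of all windows. Motifs were searched on both strands. The TEAD motif GGAATG was found in the upstream *Elf5* window and in one *Gata2* window, against 14.7% of all windows, and the AP-2 motif GCCNNNGGC in *Cdx2*, *Gata3* and one *Gata2* window, against 16.6%. The GATA motif AGATAA and the T-box motif AGGTGTGA, found in 11.2% and 1.3% of all windows, were in none of the 7 windows of these 5 genes. Methylation was not measured in these libraries.

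The libraries held between 38110410 and 52946856 reads on genes. The authors deposited pseudo-counts, read counts adjusted to a common library size, in which 1 read was worth 0.888 to 1.18. The labels were checked against markers. All 9 fibroblast markers were called higher in MEF than in the iPS lines, by the rule given below, where 21.6% of all genes were. Their summed pseudo-count was 2860270 to 3003820 in MEF, 19272 to 33859 in the iPS libraries and 20169 to 21466 in pre-iPS. *Col1a1*, *Col1a2* and *Col3a1* made up most of that sum, and single markers were lower to different degrees. *Lum* was at 11.5 to 46.2 in the pre-iPS and iPS libraries, against 22137 and 22498 in MEF. *Dcn* was at 2123 to 3011 there, against 13314 and 13738, and *Twist2* at 238 to 509, against 1328 and 1311. Of 8 pluripotency genes, all were called lower in MEF than in iPS cells, where 26.6% of all genes were. In pre-iPS 6 were called lower than in iPS cells, where 11.6% of all genes were, and *Pou5f1* higher, where 4.71% were. *Pou5f1* reads from the viral copy and from the endogenous gene cannot be told apart in such a table. None of the 8 trophoblast factors was delivered by virus.

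**Figure D1:**
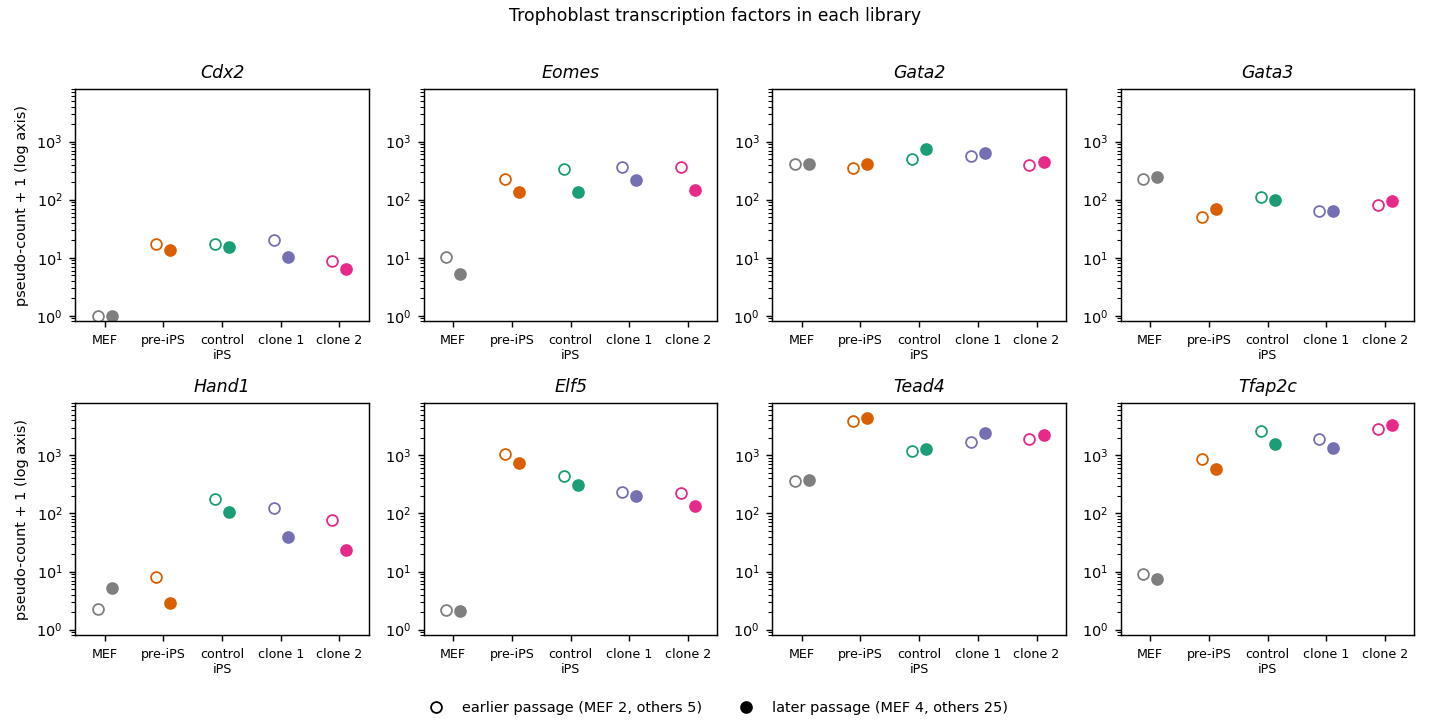
Pseudo-count plus 1 (log axis) of each trophoblast factor in the 10 libraries, 1 point per library, with open points for the earlier and filled points for the later passage of each line. *Hand1* is near 0 in MEF and pre-iPS and at 22.4 to 179 in the iPS lines, whereas *Elf5* and *Tead4* are highest in pre-iPS.

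In iPS cells the trophoblast factors spanned a wide range of RNA levels. Per exon length, as reads per kilobase of exon per 1000000 reads, *Tfap2c* stood first with 14.9 ± 4.99 (SD, n = 6 libraries of 3 lines) and *Tead4* next with 12.2 ± 3.52, and these 2 ranges overlapped. *Gata2* followed with 2.49 ± 0.634, then *Eomes* with 1.52 ± 0.605, *Hand1* with 1.10 ± 0.691 and *Elf5* with 1.06 ± 0.427. *Gata3* was at 0.521 ± 0.121 and *Cdx2* was last, at 0.132 ± 0.0590. Each neighbouring pair from *Gata2* down to *Gata3* overlapped in range, while *Cdx2*, at no more than 0.210, lay below the lowest *Gata3* library at 0.385.

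In pre-iPS the order differed. *Tead4* led with 28.1 ± 2.87 on the same scale (n = 2), *Tfap2c* was at 4.73 ± 1.25 and *Elf5* at 3.64 ± 0.817, the last pair overlapping in range. *Hand1* was last, at 0.0544 ± 0.0438, below *Cdx2* at 0.153 ± 0.0268. In MEF 3 factors had appreciable RNA, with *Tead4* at 1.81 ± 0.0495, *Gata2* at 1.35 ± 0.0212 and *Gata3* at 1.07 ± 0.0573, and these 3 ranges did not overlap. The other 5 were at 0.0355 or lower.

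**Figure D2:**
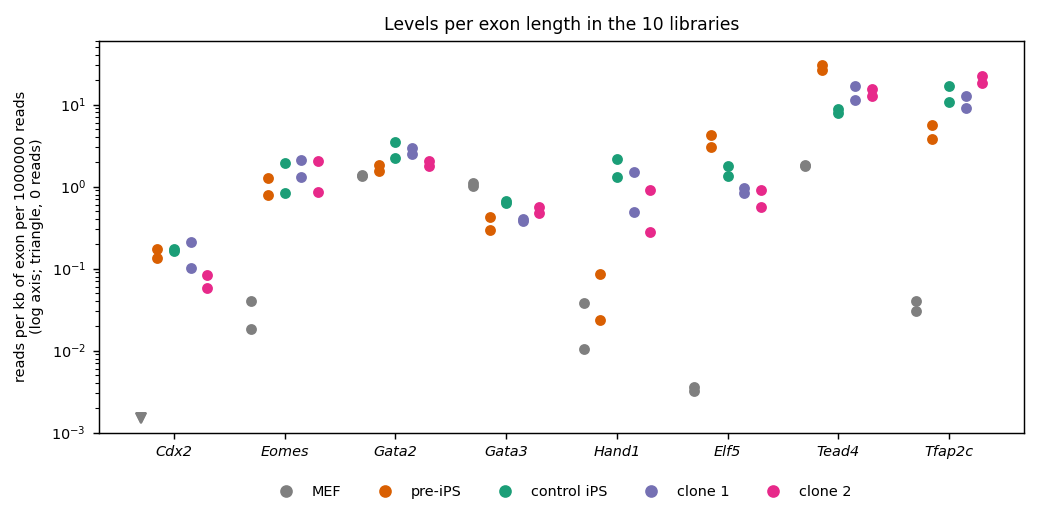
Reads per kilobase of exon per 1000000 reads on genes (log axis) for each factor, 1 point per library and 1 colour per line, with triangles for 0 reads. *Tead4* and *Tfap2c* are the 2 highest factors in the iPS lines, and *Cdx2* has no read in either MEF library.

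The upstream factors are described first. *Tead4*, the DNA-binding partner of Yap, had pseudo-counts of 358 and 370 in MEF at passages 2 and 4, and of 3927 and 4449 in pre-iPS at passages 5 and 25. It was at 1185 and 1275 in control iPS, 1676 and 2406 in clone 1 and 1926 and 2283 in clone 2. MEF, control iPS, the rNetrin-1 clones and pre-iPS thus formed 4 levels that did not overlap, with MEF at the bottom and pre-iPS at the top.

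*Gata3*, a zinc-finger factor that acts beside Cdx2, was the single member with more RNA in fibroblasts than in reprogrammed cells. Its pseudo-count was 229 and 246 in MEF, 49.0 and 69.1 in pre-iPS, 112 and 99.1 in control iPS, 63.0 and 63.6 in clone 1 and 78.4 and 92.3 in clone 2. No library of another line reached the MEF level.

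*Cdx2*, which directs the trophectoderm fate, was close to the limit of detection. It had 0 reads in both MEF libraries, and a count of 0 allows up to 3 reads in each. In pre-iPS it had 16 and 13 reads, in control iPS 17 and 14, in clone 1 22 and 9, and in clone 2 8 and 6. The pre-iPS and iPS ranges overlapped.

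Among the stem cell factors, *Eomes*, a T-box protein, had pseudo-counts of 9.25 and 4.29 in MEF, 224 and 134 in pre-iPS, 336 and 137 in control iPS, 364 and 217 in clone 1 and 360 and 143 in clone 2. In the 4 reprogrammed lines the passage 5 libraries all lay above the passage 25 libraries, although the pre-iPS library of passage 5 was only just above clone 1 at passage 25.

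*Elf5*, an ETS factor, had 1 read in each MEF library. Its pseudo-count was 1039 and 739 in pre-iPS, 434 and 313 in control iPS, 230 and 196 in clone 1 and 225 and 134 in clone 2. Pre-iPS was above every iPS library, and the control above every rNetrin-1 library.

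*Tfap2c*, an AP-2 factor, was at 8.22 and 6.36 in MEF and at 865 and 581 in pre-iPS. It reached 2591 and 1550 in control iPS, 1922 and 1327 in clone 1 and 2800 and 3301 in clone 2. Every iPS library was above both pre-iPS libraries, and clone 2 was above the other 2 iPS lines at each passage.

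The giant cell factors behaved differently from one another. *Gata2* varied least, from 353 to 751 over the 10 libraries, with 405 and 413 in MEF, 353 and 407 in pre-iPS, 496 and 751 in control iPS, 555 and 633 in clone 1 and 396 and 453 in clone 2. *Hand1* had 1.31 and 4.19 in MEF and 7.14 and 1.92 in pre-iPS, that is 9 reads over both pre-iPS libraries. In control iPS it was at 179 and 103, in clone 1 at 123 and 39.0 and in clone 2 at 75.4 and 22.4. MEF and pre-iPS overlapped near 0, and every iPS library was above them.

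The first comparison asked how the trophoblast factors differed between the starting fibroblasts and the iPS lines. A gene was called when its adjusted p was below 0.05 and its log2 difference, on the scale of log2(pseudo-count + 1), was at least 1 in size. In MEF 6 of the 8 factors were lower than in iPS cells, where 26.6% of all 17075 genes tested were called lower, and *Gata3* was higher, where 21.6% were. In either direction 7 of 8 factors were called, against 48.2% of all genes. The median log2 difference of the 8 factors was -4.01, or -3.33 with *Cdx2* at its bound, against -0.09 for all genes.

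On this scale *Tfap2c* showed the largest difference between MEF and iPS cells, -8.02 ± 0.24 (log2 ± SE, MEF minus iPS, adjusted p = 2.36e-08), followed by *Elf5* at -6.82 ± 0.25 (adjusted p = 5.77e-08). For *Elf5*, with 2 reads in MEF against 1576 in the iPS libraries, the ratio of iPS to MEF was 227, with an exact 95% interval of 62.8 to 1877 that covers counting error only. For *Tfap2c*, with 13 reads against 14130, the ratio was 313 (183 to 588). These intervals overlap, so the order of the 2 genes is not settled. *Eomes* differed by -5.03 ± 0.49 (adjusted p = 1.43e-05), *Hand1* by -4.42 ± 0.66 (adjusted p = 0.000238) and *Tead4* by -2.24 ± 0.14 (adjusted p = 8.05e-07). *Cdx2* was called (adjusted p = 1.49e-05) and was at least 3.63-fold lower in MEF, taking 3 reads per library as the floor. *Gata3* was 2.80 times as high in MEF as in iPS cells, with a log2 difference of 1.51 ± 0.19 (adjusted p = 8.81e-05).

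*Gata2* did not pass, at -0.39 ± 0.16 with a 95% interval of -0.76 to -0.01 (adjusted p = 0.0546), and with the libraries scaled to housekeeping genes its difference was 0.0014. That scaling raised the median difference of all genes from -0.09 to 0.31 and the share of higher calls from 44.8% to 58.5%. Each of the 7 called factors had MEF and iPS libraries that did not overlap, as did 80% of all genes tested, and for such genes a 2-sided exact permutation test gave p = 0.0357, the smallest that 2 against 6 libraries can give. RNA from bulk cells does not tell fewer cells of a type from less RNA per cell.

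The second comparison set pre-iPS against the 3 iPS lines. Here the factors split. *Elf5* and *Tead4* were higher in pre-iPS, 2 of 8 where 4.71% of all genes were called higher, and *Hand1* and *Tfap2c* were lower, 2 of 8 where 11.6% were called lower. In either direction the background was 16.3%. *Hand1* differed by -3.93 ± 0.66 (log2 ± SE, pre-iPS minus iPS, adjusted p = 0.00203) and *Tfap2c* by -1.59 ± 0.24 (adjusted p = 0.00131). *Elf5* differed by 1.87 ± 0.25 (adjusted p = 0.000671), a mean 3.48 times that of iPS cells, and *Tead4* by 1.27 ± 0.14 (adjusted p = 0.000207), 2.34 times. For *Hand1* the ratio of iPS to pre-iPS was 20.3, with a counting interval of 10.6 to 44.6.

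*Eomes* and *Cdx2* were not called between pre-iPS and iPS, with differences of -0.46 (95% interval -1.57 to 0.65, adjusted p = 0.486) and 0.33 (-0.47 to 1.13, adjusted p = 0.49). With quantile normalization *Cdx2* was called, at 1.18 (adjusted p = 0.0421). *Gata2* and *Gata3* were both at -0.50, with adjusted p of 0.0407 and 0.0683, below the minimum size. The median of the 8 factors was -0.48, against 0.00 (0.0011) for all genes, and with quantile normalization the share of higher calls among all genes was 51.0% instead of 28.9%. Each of the 4 called factors had groups that did not overlap, as did 41.8% of all genes, with an exact permutation p of 0.0357, again the smallest possible.

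Against MEF, pre-iPS had 5 factors higher, where 22.4% of genes were, and 1 lower, where 20.9% were. *Elf5* (log2 difference 8.69 ± 0.31, adjusted p = 8e-08), *Tfap2c* (6.43 ± 0.30, adjusted p = 3.24e-07), *Eomes* (4.57 ± 0.59, adjusted p = 0.000139), *Tead4* (3.52 ± 0.17, adjusted p = 3.62e-07) and *Cdx2* (at least 4.29-fold) were higher, and *Gata3* was lower (-2.01 ± 0.24, adjusted p = 7.23e-05). *Hand1* was not called, at 0.49 with a 95% interval of -1.34 to 2.33 (adjusted p = 0.604). Nor was *Gata2*, at -0.11 (-0.57 to 0.35, adjusted p = 0.646). With *Cdx2* at its bound the median of the 8 was 2.81, against 0.06 for all genes, and scaling to housekeeping genes moved that all-gene median to -0.34. Both pre-iPS comparisons share the pre-iPS libraries.

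**Figure D3:**
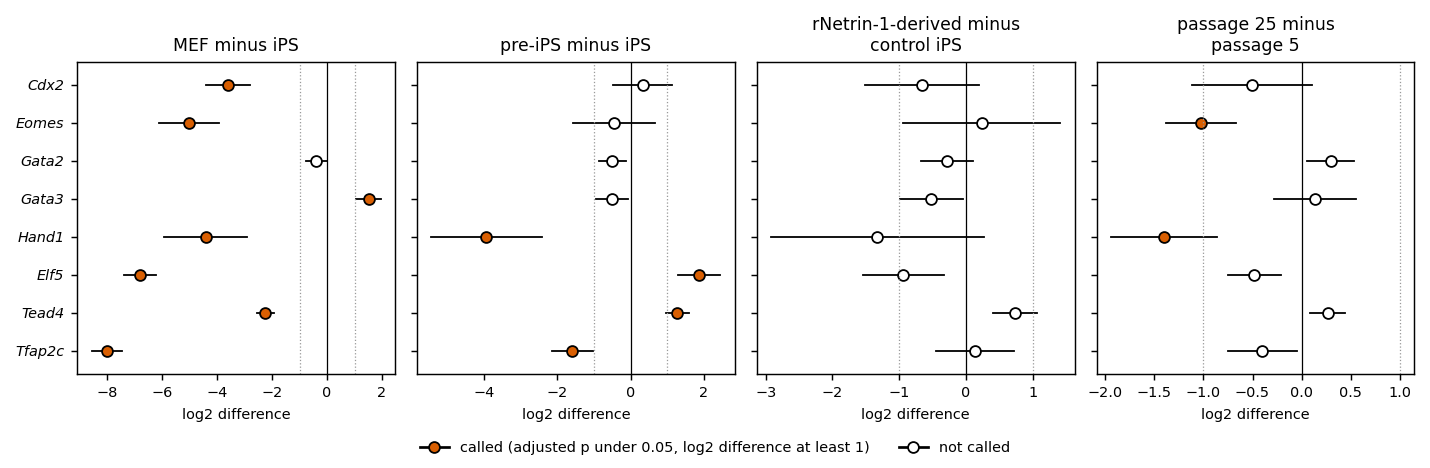
Log2 difference of each factor with its 95% interval (limma, on log2(pseudo-count + 1)) for 4 comparisons, with filled points for called differences and dotted lines at a size of 1. In MEF 6 factors are lower and *Gata3* is higher, 4 factors differ between pre-iPS and iPS, and *Eomes* and *Hand1* are lower at passage 25. None is called between the rNetrin-1-derived clones and the control in the fit shown, which has no passage block. With that block *Hand1* is called (-1.33).

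The third comparison asked whether deriving iPS clones with rNetrin-1 went with a change in trophoblast factors. None of the 8 was called between the 4 rNetrin-1-derived and the 2 control libraries by limma without a passage block, where 2.11% of all genes were. At an unadjusted p below 0.05 there were 3 of 8, against 18% of all genes, and edgeR and DESeq2 on recovered reads both called 0. *Tead4* came closest, at 0.74 ± 0.14 (log2 ± SE, rNetrin-1-derived minus control, adjusted p = 0.0298), a mean 1.69 times the control, which is below the minimum size. *Elf5* was at -0.94 ± 0.27, with a 95% interval of -1.54 to -0.33 (adjusted p = 0.102). For both genes, as for *Gata3* and for 21.3% of all genes, the groups did not overlap, and the exact permutation test gave p = 0.0667 for *Tead4* and *Elf5*, the smallest that 4 against 2 libraries can give.

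*Hand1* was at -1.33 ± 0.70 in the same comparison (95% interval -2.92 to 0.27, adjusted p = 0.376). At each passage the control was above both clones, by 179 to 123 and 75.4 at passage 5 and by 103 to 39.0 and 22.4 at passage 25. The libraries of one passage deviated together across lines. With passage as a replicate block *Hand1* was the 1 factor called, at -1.33 (adjusted p = 0.0325, range over the alternatives 0.0325 to 0.697). In that fit *Tead4* (0.74, adjusted p = 0.00548) and *Elf5* (-0.94, adjusted p = 0.00968) passed on adjusted p but were below the minimum size. The block raised the calls over all genes from 360 to 564. *Eomes* and *Tfap2c* were at 0.24 (-0.94 to 1.41) and 0.14 (-0.45 to 0.73), and *Cdx2*, *Gata2* and *Gata3* at -0.66, -0.28 and -0.52. The 95% intervals of *Gata2*, *Gata3* and *Tfap2c* lay within the minimum size, while those of the other 5 factors reached past it.

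Taken singly, neither clone had any of the 8 factors called against the control by limma without a passage block. For clone 1, 1.41% of all genes were called, and for clone 2 2.42%. At an unadjusted p below 0.05 there were 3 of 8 factors for clone 1, against 17.2% of all genes, and 4 of 8 for clone 2, against 18.7%. *Tead4* was at 0.71 ± 0.17 in clone 1 (adjusted p = 0.0719) and 0.77 ± 0.17 in clone 2 (adjusted p = 0.0414). *Elf5* was at -0.79 ± 0.31 (adjusted p = 0.237) and -1.08 ± 0.31 (adjusted p = 0.0992). Both clones are set against the same 2 control libraries. With passage as a replicate block *Elf5* (-1.08, adjusted p = 0.0108) and *Hand1* (-1.70, adjusted p = 0.0232) were called lower in clone 2. The block raised the calls over all genes for clone 2 from 413 to 711 of 17075. In that fit *Tead4* in clone 1 (0.71, adjusted p = 0.0148) and clone 2 (0.77, adjusted p = 0.00854) was below the minimum size. So was *Elf5* in clone 1 (-0.79, adjusted p = 0.0368). *Elf5* was also called in clone 2 by DESeq2 on recovered reads (-1.06, adjusted p = 0.0169), where 670 of all 17075 genes were. Its adjusted p ranged from 0.0108 to 0.311 over the alternatives.

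Between the 2 clones no factor was called by limma, edgeR or DESeq2, where limma called 0.966% of all genes. At an unadjusted p below 0.05 there were 2 of 8, against 16.6% of all genes. The largest difference was that of *Cdx2*, at -0.94 ± 0.43 (clone 2 minus clone 1, adjusted p = 0.322), near the detection limit, and that of *Tfap2c* was 0.93 ± 0.30 (95% interval 0.25 to 1.61, adjusted p = 0.177). *Tead4* was at 0.06 (-0.32 to 0.44).

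The fourth comparison followed the pre-iPS and iPS lines from passage 5 to passage 25, with line as a block over 8 libraries. *Eomes* and *Hand1* fell, 2 of 8 factors where 1.29% of all genes were called lower, and none rose. *Eomes* fell by 1.02 ± 0.15 on the log2 scale (adjusted p = 0.00974) and its mean at passage 25 was 49.1% of that at passage 5. *Hand1* fell by 1.40 ± 0.23 (adjusted p = 0.0134), to 43.3%. Both were lower at passage 25 in 4 of 4 lines, as were 20.9% of all genes, and the exact permutation p, swapping passages within lines, was 0.125, the smallest this design can give.

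Within lines, *Eomes* changed by -1.29 in control iPS, -0.75 in clone 1, -1.32 in clone 2 and -0.74 in pre-iPS. *Hand1* changed by -0.79, -1.64, -1.71 and -1.48 in the same lines, the pre-iPS step resting on 7 and 2 reads. These 2 calls were close to the thresholds. Without clone 1 at passage 5 neither was called (*Eomes* -1.12, adjusted p = 0.0511, and *Hand1* -1.33, adjusted p = 0.0998). *Hand1* was also lost without clone 1 at passage 25 (-1.33, adjusted p = 0.096) or without pre-iPS at passage 5 or 25 (-1.38, adjusted p = 0.0623 and 0.0605). *Eomes* fell just short of the minimum size without either library of control iPS (-0.93) or of clone 2 (-0.92). Without the line block neither was called (adjusted p = 0.207 and 0.852).

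*Elf5* was also lower at passage 25 in 4 of 4 lines, by 0.23 to 0.74, but its mean step of -0.48 ± 0.11 (adjusted p = 0.0398) was below the minimum size. *Cdx2* (-0.50, adjusted p = 0.249) and *Tfap2c* (-0.40, adjusted p = 0.13) did not pass. *Tfap2c* had steps of -0.74, -0.53 and -0.57 in control iPS, clone 1 and pre-iPS and of 0.24 in clone 2. *Tead4*, *Gata2* and *Gata3* were at 0.26, 0.30 and 0.14, and *Tead4* and *Gata2* were higher at passage 25 in each line, as were 15.1% of all genes, without passing the test. The median of the 8 factors was -0.44, against -0.01 for all genes.

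**Figure D4:**
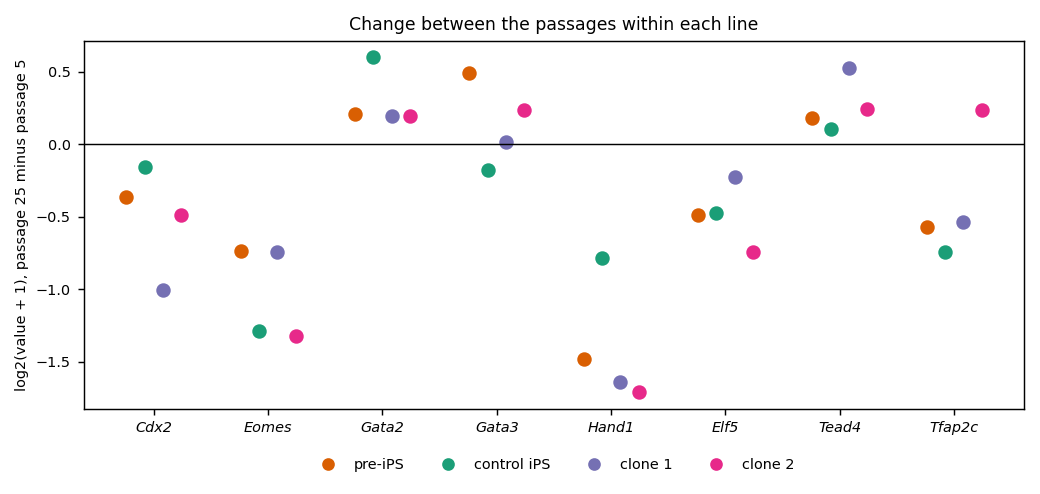
Difference in log2(pseudo-count + 1) between passage 25 and passage 5 within each of the 4 reprogrammed lines, 1 point per line and gene. All 4 lines lie below 0 for *Eomes*, *Hand1*, *Elf5* and *Cdx2*, as for 20.9% of all genes, and *Tfap2c* is above 0 in clone 2 alone. The *Cdx2* steps rest on 6 to 22 reads a library.

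Other genes of the trophoblast were read from lists. All lists were chosen with earlier results of these data known, so their counts beside the shares of all genes are a description and not a test. Of 12 further transcription factors linked to the lineage, 5 were lower and 3 higher in MEF than in iPS cells, where 26.6% and 21.6% of all genes were. *Ascl2* (-5.00), which acts in spongiotrophoblast precursors, *Gcm1* (-3.11), a factor of labyrinth formation, *Dlx3* (-5.31), *Cited1* (-4.19) and *Elf3* (-8.11) were lower, and *Ets2* (1.68), *Id2* (1.89) and *Msx2* (3.05) higher. In pre-iPS *Gcm1* (-3.25) and *Id2* (-1.17) were lower than in iPS cells and *Bhlhe40* (1.13) was higher, 2 and 1 of 12 where 11.6% and 4.71% of all genes were. The pseudo-counts of *Gcm1* were 6.12 and 2.88 in pre-iPS against 23.6 to 87.0 in the iPS libraries. At passage 25 *Dlx3*, a homeobox factor of the placenta, fell by 1.40 ± 0.19 (adjusted p = 0.00675), 1 of 12 where 1.29% of all genes fell, and the median of the 12 genes was -0.45.

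Genes of the trophectoderm epithelium and placenta differed between pre-iPS and iPS and between passages. In pre-iPS 6 of 10 were lower than in iPS cells and none higher, with a list median of -1.57, where 11.6% of all genes were lower and 4.71% higher. They were the imprinted gene *Peg10* (-3.82), the homeobox genes *Rhox5* (-2.08), *Rhox6* (-3.90) and *Rhox9* (-5.72), the cadherin *Cdh3* (-1.54) and *Plac1* (-1.60). The keratin gene *Krt8* was not among them, with 16899 and 7597 in pre-iPS against 4339 to 19819 in the iPS libraries. The *Rhox* genes form a cluster of related copies on the X chromosome, so their split of reads is uncertain. Lists of other lineages were lower in pre-iPS as well, with 6 of 8 germ line genes (median -3.09), 5 of 8 primitive endoderm genes (-1.55), 4 of 7 genes of the primitive streak and mesoderm (-1.19, 1 higher) and 4 of 8 blood and endothelium genes (-1.06, 2 higher) called lower.

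From passage 5 to passage 25, 5 of the same 10 genes fell and none rose, where 1.29% of all genes fell and 0.398% rose. They were the simple-epithelium keratins *Krt7* (-1.91 ± 0.07, adjusted p = 4.77e-05), *Krt8* (-1.52 ± 0.12, adjusted p = 0.00133) and *Krt18* (-1.38 ± 0.09, adjusted p = 0.000858), the Wnt ligand gene *Wnt7b* (-1.14 ± 0.12, adjusted p = 0.00414) and *Peg10* (-1.04 ± 0.15, adjusted p = 0.00921). The summed pseudo-count of the list was 24780 to 77934 at passage 5 and 11408 to 49003 at passage 25. It moved in the direction of *Eomes* and *Hand1*, and its part in their change was not tested. Over the same passages none of 9 fibroblast markers, 8 pluripotency genes, 8 primitive endoderm genes or 7 genes of the primitive streak and mesoderm was called, with medians of -0.01, -0.30, -0.55 and 0.05. In each of 3 further lists 1 gene fell and none rose, namely *Dazl* (-1.48) of 8 germ line genes (median -0.48), *Csf1r* (-1.48) of 8 blood and endothelium genes (-0.03) and *Dnmt3l* (-1.25 ± 0.20, adjusted p = 0.0128) of 10 genes that restrain the trophoblast fate (-0.06). Whether the lists differ from one another was not tested.

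**Figure D5:**
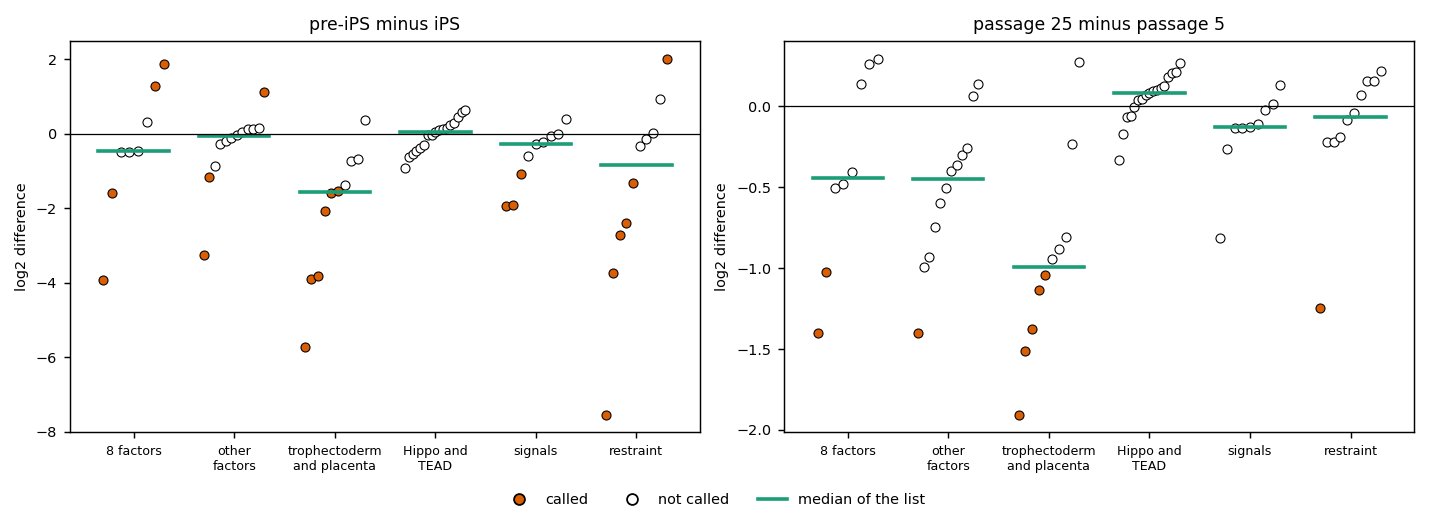
Log2 differences of the genes in 6 lists for pre-iPS minus iPS (left) and passage 25 minus passage 5 (right), 1 point per gene, filled where called, with a line at each list's median. The list of trophectoderm and placenta genes has 6 of 10 genes lower in pre-iPS, where 11.6% of all genes are. It has 5 of 10 lower at passage 25, where 1.29% of all genes are. No gene of the Hippo and TEAD list is called in either comparison, where 16.3% and 1.69% of all genes are.

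The partners of Tead4 were read from a list as well. Of 17 genes of the Hippo pathway and the TEAD family, 10 were higher in MEF than in iPS cells and none lower, where 21.6% and 26.6% of all genes were, among them the kinase gene *Lats2* (2.72), the angiomotins *Amot* (2.43) and *Amotl2* (2.40), the Yap homologue *Wwtr1* (1.09) and the family members *Tead1* (1.09) and *Tead3* (1.89). None was called between pre-iPS and iPS, where 16.3% of all genes were. Nor was any between rNetrin-1-derived and control or between passages, where 2.11% and 1.69% of all genes were. At these 2 low shares, 17 genes without a call are not a result about the list. Some differences passed on adjusted p but were below the minimum size. In pre-iPS minus iPS these were *Lats1* (0.46), *Lats2* (0.64) and *Vgll4* (0.59), and in the other direction *Stk4* (-0.39), *Amot* (-0.63), *Amotl2* (-0.92), *Tead1* and *Tead2*. In rNetrin-1-derived minus control it was *Amot* (-0.56, adjusted p = 0.0384). *Yap1* ranged from 7060 to 8429 over the 8 pre-iPS and iPS libraries, and its difference between pre-iPS and iPS was -0.05 (adjusted p = 0.605). *Tead1* was at -0.55 and *Tead2* at -0.31 in pre-iPS minus iPS, whereas *Tead4* was at 1.27.

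Of 9 genes for signals that act on trophoblast, 3 were lower in pre-iPS than in iPS cells and none higher, where 11.6% of all genes were lower and 4.71% higher. They were the receptor gene *Fgfr2* (-1.93), the proprotein convertase gene *Pcsk6* (-1.09) and *Nodal* (-1.94), a ligand of the epiblast. In the list of 10 genes that restrain the trophoblast fate in embryonic cells, 5 were lower in pre-iPS and 1 higher, against the same shares of all genes. *Nanog* (-3.74), *Sall4* (-2.39), the DNA methyltransferase genes *Dnmt3a* (-1.32) and *Dnmt3b* (-2.72), and the related gene *Dnmt3l* (-7.55) were lower. *Pou5f1* (2.02), with the viral copy included, was higher. *Dnmt3l* had 29.6 and 17.3 in pre-iPS against 1662 to 9247 in the iPS libraries. *Dnmt1*, the maintenance methyltransferase gene, was not called. Pre-iPS is the line with the most *Elf5* RNA, and whether these values bear on one another was not tested.

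The genes whose profile over the 8 pre-iPS and iPS libraries was most like that of each factor were listed by Pearson's r of log2(pseudo-count + 1), as a description over libraries that share lines and passages. For *Hand1* they were *Peg10* (0.9925), the imprinted non-coding gene *H19* (0.9891) and *Rcn1* (0.9876). *Peg10* ranged from 1242 to 49574 and *H19* from 3050 to 36142, both lowest in a pre-iPS library. *Tfap2c* was closest to *Rasgrp4* (0.9925), the Polycomb gene *Eed* (0.9915) and *Cdyl2* (0.9891). *Elf5* was closest to 4930550L24Rik (0.9914), *Cyb5* (0.9885) and *Myocd* (0.9854), and *Tead4* to *Kcnma1* (0.9909), *Cox15* (0.9891) and *Acsf3* (0.9855).

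*Eomes* was closest to *Ruvbl1* (0.9945), *Med31* (0.9703) and *Sfn* (0.9644), *Gata2* to *Lhfpl2* (0.9814), *Vasn* (0.9792) and *Plekho1* (0.9721), *Gata3* to A330102I10Rik (0.987), *Tab3* (0.9692) and *Itch* (0.9674), and *Cdx2* to *Ift20* (0.9833), *Ublcp1* (0.9769) and *Rnf128* (0.9472). Some of the closest genes varied little over the 8 libraries, such as *Ruvbl1* (5953 to 7169), *Ift20* (876 to 1095) and *Itch* (3001 to 3610). Others varied more, such as *Sfn* (4948 to 12571). A high r thus does not mean a change of similar size. No factor was among the 3 closest genes of another. The 8 factors did not share one profile, with r of -0.96 between *Hand1* and *Tead4*, 0.742 between *Hand1* and *Tfap2c*, -0.756 between *Elf5* and *Tfap2c* and 0.312 between *Cdx2* and *Eomes*.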

How the data were processed

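RNA from 10 libraries (5 lines at 2 passages) was poly(A)-selected and sequenced as 50-nt single reads without strand marking. According to the submitters' processing notes, CASAVA 1.8.2, FastQC, TopHat2 2.0.8b, HTSeq 0.5.3p9 and edgeR were used with build mm10. The authors deposited edgeR pseudo-counts, a normalized signal in which counts are adjusted to a common library size. Undoing that adjustment gave whole reads (within 0.1 of a read) for 100% of values in each library.

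The filter required a pseudo-count of 10 or more in 2 or more libraries, and 17075 of 18901 genes passed. The main test was limma 3.58.1 (R 4.3.3, trend, 1 mean per line) on log2(value + 1), which understates the change of low genes, with Benjamini-Hochberg adjustment over all genes tested; passages were compared over 8 libraries with line as a block. Exact permutation tests were 2-sided. Alternatives were a pseudocount of 5 or 0.5, other filters, thresholds and scalings, fewer lines or libraries, a passage block, and edgeR 4.0.16 and DESeq2 1.42.0 on the recovered reads. Same-numbered passages deviated together in all 6 pairs of reprogrammed lines (r 0.235 to 0.504), which pairs them. The functions were run on simulated counts of independent libraries with planted changes. These held no shared deviation of passages, so they check the code and not its fit to this design.

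Positions and exon lengths came from GENCODE on GRCm38 and start regions from RefSeq. The genes named were the 8 factors, listed genes past the threshold or near 0, and the 3 genes most like each factor. The 8 factors and all lists were chosen with earlier results of these data known.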

Additional observations from a re-analysis of the deposited data

How the results depend on the processing

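Counts of called factors moved by more than 1.5 times in 3 comparisons. Between rNetrin-1-derived and control libraries 1 factor was called with adjusted p alone (*Tead4*) and 1 with passage as a replicate block (*Hand1*). Between clone 2 and the control 1 was called with adjusted p alone (*Tead4*), 2 with the replicate block (*Hand1*, *Elf5*) and 1 by DESeq2 (*Elf5*). Between passages 1 was called with quantile normalization (*Hand1*), 0 without the line block, and 0 to 1 when 1 library was left out. The block changed no other call of a factor. Leaving out 1 library kept the counts at 7, 4 and 6 in the comparisons of MEF with iPS, pre-iPS with iPS and pre-iPS with MEF. The cause of these moves was not tested.

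Signs changed only where no difference was called. *Gata2* between MEF and iPS was 0.0014 with housekeeping scaling, and *Hand1* between pre-iPS and MEF was -0.50 with quantile normalization and -0.25 to 1.24 when 1 library was left out. With 1 library left out, rNetrin-1-derived minus control ranged from -0.41 to 0.88 for *Eomes*, -0.58 to 0.01 (0.014) for *Gata2* and -0.23 to 0.51 for *Tfap2c*. Clone 1 minus control ranged from -0.69 to 0.32 for *Cdx2*, -0.26 to 1.03 for *Eomes*, -0.34 to 0.26 for *Gata2* and -0.70 to 0.04 (0.044) for *Tfap2c*, and clone 2 minus control from -0.58 to 0.75 for *Eomes*. Clone 2 minus clone 1 ranged from -0.97 to 0.36 for *Eomes*, -1.59 to 0.11 for *Hand1*, -0.66 to 0.08 (0.084) for *Elf5* and -0.20 to 0.32 for *Tead4*. Of 1232 values of single factors under an alternative, 1193 kept their direction and side of the threshold.

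Over all genes, the calls between clone 2 and the control were 413, or 17 with only the lines compared, 711 with the block and 670 by DESeq2. Those between clone 1 and the control were 240, or 0, 490 and 515, and 372 with quantile normalization. Those between the clones were 165, or 6, 327 and 435, and 106 with a mean of at least 50. Those between rNetrin-1-derived and control were 360, or 134 and 564 with the block, those between pre-iPS and iPS 2781, or 1758 with a mean of at least 50, and those between passages 289, or 6 without the line block. Leaving out 1 library moved the calls over all genes to between 94 (clone 1, passage 5) and 288 for the passages, 120 (control iPS, passage 25) and 419 for rNetrin-1-derived against control, 63 (clone 1, passage 25) and 264 for clone 1, 126 (control iPS, passage 25) and 377 for clone 2, and 14 (clone 1, passage 25) and 260 between the clones, the library named being the one left out for the lowest count, so the shares of all genes given for these comparisons move with them. Fitting only the lines compared was not run for the passages, since it uses the same libraries. *Cdx2*, with 0 to 22 reads a library, was limited by depth.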

Other observations

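Genes of differentiated trophoblast had little RNA in these lines. Of 10 listed, 7 were in the table and 3 passed the filter on low values. *Prl3d1*, placental lactogen of giant cells, *Prl4a1*, *Tpbpa*, a spongiotrophoblast marker, and *Psg17* were listed at 0 in both MEF libraries. *Prl3d1* had pseudo-counts of up to 27.8, in clone 2 at passage 5, where *Prl4a1* was also at 27.8 and *Tpbpa* at 13.9. At passage 25 the highest values of *Prl3d1* and *Tpbpa* were 7.19 and 0.887. *Prl8a9* fell from passage 5 to passage 25 (-2.40 ± 0.30, limma adjusted p = 0.00597), from 4.08 to 11.5 to no more than 1.78.

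*Prl2c2* was the exception, with 438 to 935 in the pre-iPS and iPS libraries and 5.71 and 1.11 in MEF (-7.56 ± 0.38, MEF minus iPS, limma adjusted p = 2.77e-07). It has near-identical neighbours in the prolactin family, so its share of reads is uncertain. *Syna*, the syncytin A gene, had 12.2 to 42.1 in all 10 libraries and was not called in any comparison.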
